A study of Mus musculus with 144 samples.

Results

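Blood of mice was compared 6 months after either of a pair of fibrous materials had been placed in the lung: 120 µg of crocidolite, an amphibole asbestos, or 80 µg of carbon nanotubes with several walls (MWCNT), the highest nanotube dose of the study. The arrays were chosen from their treatment labels alone, 9 with crocidolite and 8 with MWCNT, so the 17 arrays, each of a different mouse, are 11.8% of the arrays and 12.2% of the mice of the series. Male C57BL/J6 mice, obtained at 7 weeks of age, had been given dispersion medium (DM), 1, 10, 40 or 80 µg of MWCNT in DM, or crocidolite in DM, and were bled 1, 6 or 12 months later. DM is a phosphate-buffered saline with glucose, mouse serum albumin and a phospholipid, so every group compared here received it, as 1 pharyngeal aspiration of 50 µL under isoflurane. The 8 mice given DM alone and sampled at 6 months are given beside both groups. The masses of the materials differ, so the comparison is of these 2 exposures and not of equal doses.

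Both materials are long, thin and poorly cleared, and both are taken up by macrophages of the lung and of the pleural space. Whole blood carries the RNA of red cells, platelets, lymphocytes, monocytes and granulocytes. Macrophages exposed to interleukin-4 and interleukin-13 enter alternative activation, in which the transcription factor STAT6 switches on genes such as Retnla and Arg1, while the resident macrophages of the pleural and peritoneal cavities express Timd4, Cd5l, Alox15 and Gata6. In bulk blood, fewer cells of a type and less RNA per cell cannot be told apart. A value below is a log2 expression value from the arrays, and a difference is crocidolite minus MWCNT on that scale unless another is named.

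The 14 measured markers of blood cells all had group means above the floor of 1.51, the level below which 90% of olfactory receptor probe sets lie. Those of platelets (Ppbp, Pf4, Gp9) had means of 9.68 to 12.61 in the 2 groups, those of B cells (Cd79a, Ms4a1) 6.89 to 8.50, and those of neutrophils (S100a8, S100a9, Cxcr2) 6.49 to 7.76. None of the 14 differed at an unadjusted p under 0.05. Correlations between mice over the tested probe sets had a median of 0.946 within the crocidolite group (36 pairs), 0.937 within the MWCNT group (28 pairs) and 0.946 between the groups (72 pairs). The array spread differed by 0.0055 (exact permutation p = 0.822, 2-sided, Benjamini-Hochberg adjusted p = 0.822 over 2 measures) and the median correlation with all other arrays by 0.0066 (exact permutation p = 0.372, adjusted p = 0.744). No array of the 2 groups had a median correlation below 0.85, and 1 DM array of 6 months had one of 0.849. The array numbers in the labels, which stand in for a batch that the labels do not name, were not balanced: 8 of 9 crocidolite arrays and 4 of 8 MWCNT arrays were numbered 1 to 96.

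The first question was which genes differed in blood between the materials. No probe set passed. Of 23521 probe sets with 1 gene symbol, 0 (0%) had an adjusted p under 0.10 in the limma fit (Benjamini-Hochberg, smallest adjusted p = 0.632), and 0 passed in the analysis of variance that the methods describe. At an unadjusted p under 0.05 there were 1035 (4.4%), against 1176 if nothing differed, and 1398 with the array numbers as a block. Of these, 616 (2.62%) were higher and 419 (1.78%) lower with crocidolite. With a difference of at least 1.5-fold as well, 96 (0.408%) were higher and 69 (0.293%) lower. The 66 genes picked by the naming rule had adjusted p between 0.632 and 0.997 in this comparison, and all genes below are described by their values. The 95% confidence interval had a median half-width of 0.39 and, for 96.2% of the probe sets, lay wholly within a 2-fold difference in either direction.

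Small differences went in 1 direction among bright probe sets. Over all tested probe sets the median difference was 0.04, and 58.1% were above 0. Among the 3967 probe sets with a mean value above 4 it was 0.14, and 82.7% were above 0, and 26 of the 3967 differed by at least 1.5-fold. After a second quantile normalization these numbers were 0.05 and 63.6%. Positive differences of bright genes and lists below are to be read beside these values.

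**Figure D1:**
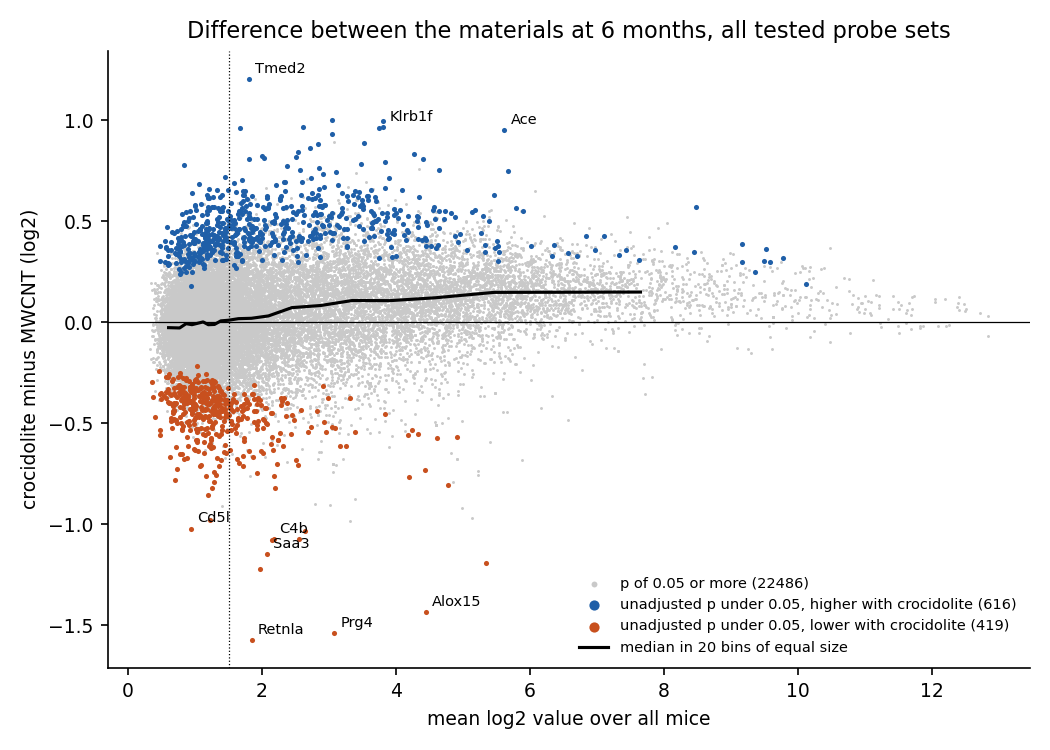
Difference between the groups (crocidolite minus MWCNT, log2; vertical axis) against the mean log2 value over all mice (horizontal axis) for each of the 23521 tested probe sets. Blue and orange points are the 616 higher and 419 lower with crocidolite at an unadjusted p under 0.05, none of which passed after adjustment; the black line is the median in 20 bins, the dotted line the floor of 1.51. The lowest points are Retnla, Prg4 and Alox15.

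Tef, Ppard and Klrb1f were among the 12 genes of smallest p that were higher with crocidolite. Tef, a transcription factor that relays the circadian clock, was 1.65 at lowest, 2.54 at the median and 3.13 at highest in the 9 crocidolite mice, and 1.24, 1.67 and 1.98 in the 8 MWCNT mice. Of the crocidolite mice, 8 lay above every MWCNT mouse. The difference was 0.82 ± 0.19 (SE; 95% interval 0.45 to 1.2), a factor of 1.77 (unadjusted p = 2.7e-05, limma adjusted p = 0.632). Its second probe set differed by 0.26 ± 0.15. Tef had the highest mean of all 18 groups with crocidolite at 6 months and the lowest with MWCNT 80 µg at 6 months, with the DM mice between at 2.02 ± 0.48 (SD). Of the 17 measured members of the circadian clock list, Tef was the only one at an unadjusted p under 0.05, and the list's median difference was 0.02.

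Ppard, a nuclear receptor that fatty acids activate, was the only probe set of the 23521 whose groups did not overlap with crocidolite higher (0.00425%), and 0 did not overlap with crocidolite lower. It was 3.24 to 4.17 with a median of 3.62 in the crocidolite mice and 2.45 to 3.23 with a median of 2.88 in the MWCNT mice. The lowest crocidolite mouse, at 3.24, thus lay just above the highest MWCNT mouse, at 3.23. The difference was 0.75 ± 0.22 (95% interval 0.32 to 1.17), and the DM mice, at 2.57 to 3.83, overlapped both groups.

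Klrb1f, a lectin-like receptor of natural killer cells, was 3.0 to 5.24 with a median of 4.23 in the crocidolite mice and 1.53 to 4.2 with a median of 3.37 in the MWCNT mice, a difference of 0.96 ± 0.30. Tmed2, which helps proteins leave the endoplasmic reticulum, differed by 1.2 ± 0.34 at its dim probe set, while its bright one differed by 0.16 ± 0.14. Gapdh, a glycolytic enzyme often used as a reference gene, had means of 9.30 ± 0.20 and 9.0 ± 0.30 (SD), a difference of 0.30 ± 0.09, to be read beside the median of 0.14 of bright probe sets. A second bright Gapdh probe set differed by 0.30 ± 0.09 as well, and a dim one by -0.17 ± 0.21. Other genes in this group were Esrrg, an orphan nuclear receptor of oxidative metabolism (0.52 ± 0.15), Dgat2, an enzyme of triglyceride synthesis (0.61 ± 0.19), Zkscan3, a zinc finger repressor of autophagy genes (0.77 ± 0.23), Mib2, a ubiquitin ligase of Notch signalling (0.66 ± 0.19), Knop1, a nucleolar protein (0.68 ± 0.19), Arhgef37 (0.88 ± 0.27) and Myadml2 (0.63 ± 0.19, but -0.09 ± 0.19 at its second probe set). They were dim, with means over all mice of 1.19 to 2.84, and Esrrg, Dgat2 and Mib2 had MWCNT means under the floor.

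Garnl3, Cd14 and Cd5l were among the 12 genes of smallest p that were lower with crocidolite. Garnl3, a member of the cavity macrophage list, was 0.93 to 1.73 with a median of 1.35 in the crocidolite mice and 1.56 to 2.52 with a median of 2.05 in the MWCNT mice. In 6 of the 8 MWCNT mice it was above every crocidolite mouse. The difference was -0.64 ± 0.16 (unadjusted p = 6.3e-05, limma adjusted p = 0.737), and the DM mice were 1.10 to 1.73. The crocidolite and DM means, 1.36 and 1.40, were under the floor, so these groups cannot be ordered and the size of the difference rests on dim values. In all, 8 of the 12 genes had crocidolite means under the floor and were taken in by the naming rule through the MWCNT group, namely Garnl3, Cd5l, Tmem169, Cln8, Ccl27a, Prss33, Upk2 and Bcam. Cd14, the co-receptor for bacterial lipopolysaccharide on monocytes and macrophages, was 1.65 to 2.76 with crocidolite, 1.71 to 3.78 with MWCNT and 1.60 to 2.48 with DM. The difference was -0.70 ± 0.21, and 6 MWCNT mice lay above all crocidolite mice. The same count of MWCNT mice lay above all DM mice. Cd14 was the only one at an unadjusted p under 0.05 in the classical monocyte list, where 9 of 11 genes were above 0 (median 0.24), and in the Toll-like receptor list, where 17 of 19 were above 0 (median 0.17).

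Cd5l, a protein that tissue macrophages secrete and that binds lipids, was 0.54 to 2.39 with a median of 0.72 in the crocidolite mice and 0.47 to 3.91 with a median of 2.07 in the MWCNT mice. The groups overlapped widely, since the lowest mouse of all was an MWCNT mouse. The difference was -1.02 ± 0.33. The other genes here were Fcrl5, a B cell protein related to Fc receptors (-0.82 ± 0.28), Bcam, a laminin receptor (-0.55 ± 0.19), Agk, a lipid kinase of mitochondria (-0.70 ± 0.24), Prss33, a serine protease (-0.66 ± 0.20), Upk2, a uroplakin (-0.71 ± 0.23), Sptbn5, a spectrin (-0.36 ± 0.12), and Tmem169 (-0.86 ± 0.24). Cln8, which carries lysosomal enzymes from the endoplasmic reticulum, differed by -0.78 ± 0.22 at 1 probe set and by -0.02 ± 0.22 at the other. Ccl27a, a chemokine of skin, likewise differed by -0.76 ± 0.23 at 1 probe set and by 0.13 ± 0.30 at the other.

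**Figure D2:**
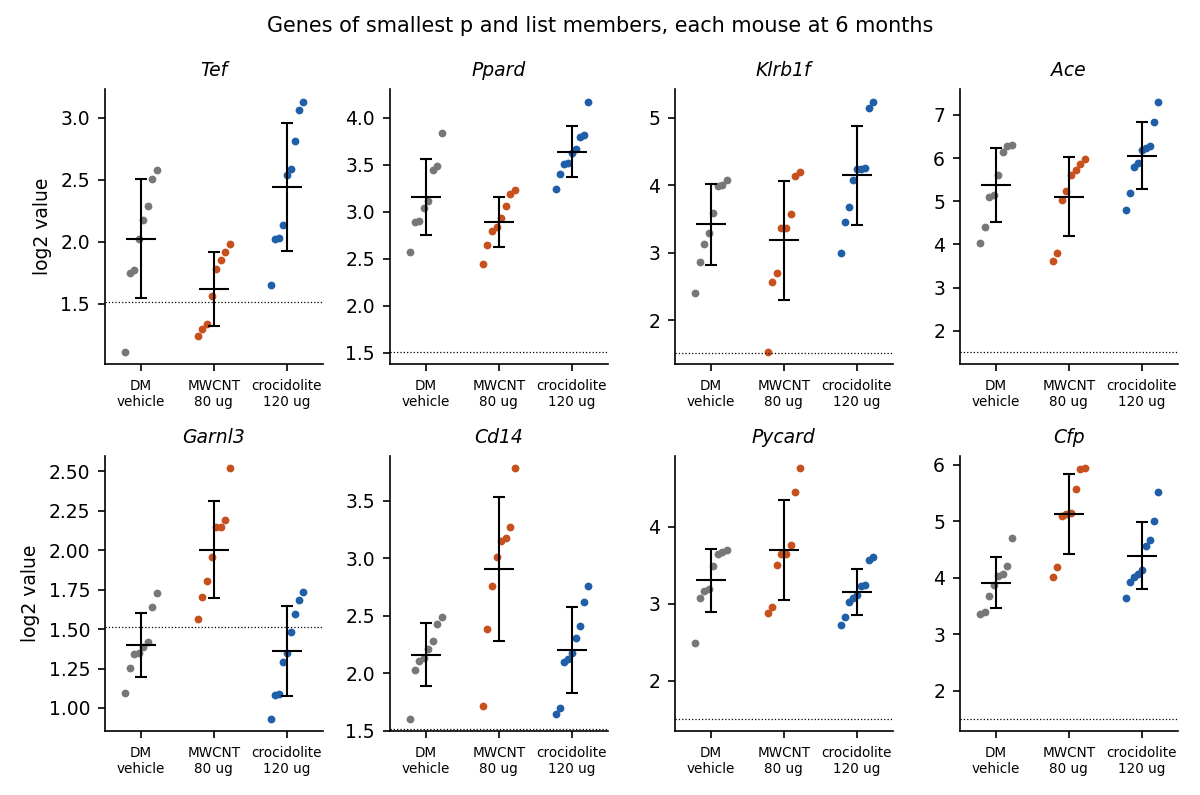
Log2 values of 8 genes (vertical axes) in each mouse at 6 months given DM (grey), MWCNT 80 µg (orange) or crocidolite 120 µg (blue), with the mean and SD of each group in black and the floor as a dotted line. Ppard shows no overlap between the 2 materials; Tef, Klrb1f and Ace sit higher with crocidolite, and Garnl3, Cd14, Pycard and Cfp higher with MWCNT, with shared ranges.

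The differences furthest below 0 among all tested probe sets were those of Retnla, Prg4 and Alox15, genes of alternatively activated macrophages and of the linings of body cavities. Retnla encodes a secreted protein that is a standard marker of alternative activation. In the crocidolite mice it was 0.20 at lowest, 3.18 at the median and 4.27 at highest, and 3 of the 9 were at or below 1.11. In the MWCNT mice it was 2.21, 4.16 and 6.70, and 3 of the 8 were above every crocidolite mouse. The DM mice were 0.31 to 3.16, and 6 of the 8 were at or below 0.73. The difference was -1.57 ± 0.62 (95% interval -2.80 to -0.34), a factor of 2.97, with an unadjusted p of 0.0128 and a limma adjusted p of 0.997. MWCNT exceeded DM by 3.08 ± 0.64 (limma adjusted p = 0.102) and crocidolite exceeded DM by 1.5 ± 0.62 (unadjusted p = 0.017). These 2 comparisons share the DM mice. Of the 18 groups, MWCNT 80 µg at 6 months had the highest Retnla mean, MWCNT 10 µg at 6 months the second (3.04 ± 2.16, SD) and crocidolite at 6 months came next.

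The Retnla promoter is printed because the gene had the difference furthest from 0 between the materials and is a textbook target of STAT6. The stretch is chr16:48842359-48842608 of GRCm38.p6, plus strand, the 250 bases before the RefSeq start of the gene. Capitals mark the only match to TTCNNNNGAA, an inverted repeat that reads the same on both strands, which begins 145 bases before the start.
Retnla promoter: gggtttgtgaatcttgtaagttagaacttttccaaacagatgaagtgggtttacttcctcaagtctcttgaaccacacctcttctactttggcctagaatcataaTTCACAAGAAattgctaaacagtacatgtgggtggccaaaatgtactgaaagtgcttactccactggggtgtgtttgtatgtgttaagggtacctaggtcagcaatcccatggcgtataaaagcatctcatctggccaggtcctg
Of 32851 promoter stretches of this length in the RefSeq table, 1923 (5.85%) hold such a match. A match describes the sequence and is not a measured site, and binding was not measured here.

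Of the 19 measured genes of the type 2 and alternative activation list, 4 were lower with crocidolite at an unadjusted p under 0.05 and 0 were higher, against 1.78% and 2.62% of all tested. The 4 were Retnla, Arg1, Chil4 and Ccl24. This list, like the others, was chosen with earlier results of these data known, so the counts describe and do not test. Arg1, the arginase that competes with nitric oxide synthase for arginine, was 1.25 to 2.12 with a median of 1.55 in the crocidolite mice and 1.67 to 2.67 with a median of 2.07 in the MWCNT mice, and 3 MWCNT mice lay above all crocidolite mice. The difference was -0.48 ± 0.19, and the DM mice covered 1.19 to 2.20. Chil4, a chitinase-like protein, differed by -0.55 ± 0.23 and Ccl24, an eosinophil chemokine, by -0.50 ± 0.20, with group means of 1.01 to 1.87. The list's median difference was 0.02, against 0.04 over all tested. The other 15 members had larger p. Among them the chitinase-like Chil3 had means of 5.24 ± 1.40 and 5.05 ± 1.61, and the receptor subunit Il4ra 5.31 ± 0.50 and 4.90 ± 0.47 (SD). Group means above the floor were found for 8 of the 19 members with MWCNT, 6 with crocidolite and 5 with DM.

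Alox15, a lipoxygenase of cavity macrophages and eosinophils, was 3.55 to 6.60 with a median of 4.6 in the crocidolite mice and 4.73 to 7.32 with a median of 6.46 in the MWCNT mice. Of the 9 crocidolite mice, 6 were below every MWCNT mouse. The difference was -1.43 ± 0.54 (95% interval -2.50 to -0.36), a factor of 2.70. MWCNT exceeded DM by 2.21 ± 0.56 (unadjusted p = 0.00012, limma adjusted p = 0.484), and crocidolite exceeded DM by 0.77 ± 0.54. Of the 9 measured members of the eosinophil list, Alox15 was the only one at an unadjusted p under 0.05, and Siglecf had means of 2.56 ± 0.53 and 2.64 ± 0.22 (SD). Prg4, which encodes the lubricating glycoprotein lubricin of joints and serous linings, was 1.58 to 5.97 with a median of 3.92 in the crocidolite mice and 2.15 to 6.70 with a median of 5.78 in the MWCNT mice, a difference of -1.54 ± 0.75. The DM mice were 0.92 to 4.81.

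Of the 16 measured cavity macrophage genes, 4 were lower with crocidolite at an unadjusted p under 0.05 and 0 were higher (1.78% and 2.62% of all tested), 5 were above 0 (58.1% of all tested), and the median difference was -0.32. The 4 were Garnl3, Cd5l, Alox15 and Timd4, of which all but Alox15 had crocidolite means under the floor. Of the 16 genes, 7 were above the floor with crocidolite, 12 with MWCNT and 7 with DM. The list is dim, with a median level of 1.42 over all mice. The share of 58.1% is not matched to that level, since it was 66.1% among probe sets above the floor in a group. Timd4, a receptor with which resident macrophages bind dying cells, was 1.06 to 2.70 with a median of 1.36 in the crocidolite mice and 1.08 to 3.47 with a median of 2.16 in the MWCNT mice, a difference of -0.68 ± 0.25. Gata6, the transcription factor that defines cavity macrophages, was at or under the floor in these groups, with means of 1.19 ± 0.31 with crocidolite and 1.51 ± 0.31 with MWCNT (SD). Vsig4, a complement receptor of resident macrophages, was below it at 0.84 ± 0.23 and 1.13 ± 0.26. The mean over the 16 genes was 2.03 to 2.88 in the crocidolite mice, 2.35 to 3.24 in the MWCNT mice and 2.1 to 2.58 in the DM mice, so the groups overlapped. That mean was the highest of the 18 groups in MWCNT 80 µg at 6 months, 2.82 ± 0.34 (SD), second in MWCNT 10 µg at 6 months, 2.66 ± 0.61, and rank 4 in crocidolite at 6 months, 2.44 ± 0.27. At 6 months the order did not follow the MWCNT dose, since the group given 40 µg had 2.33 ± 0.18 and the group given 1 µg 2.24 ± 0.20.

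**Figure D3:**
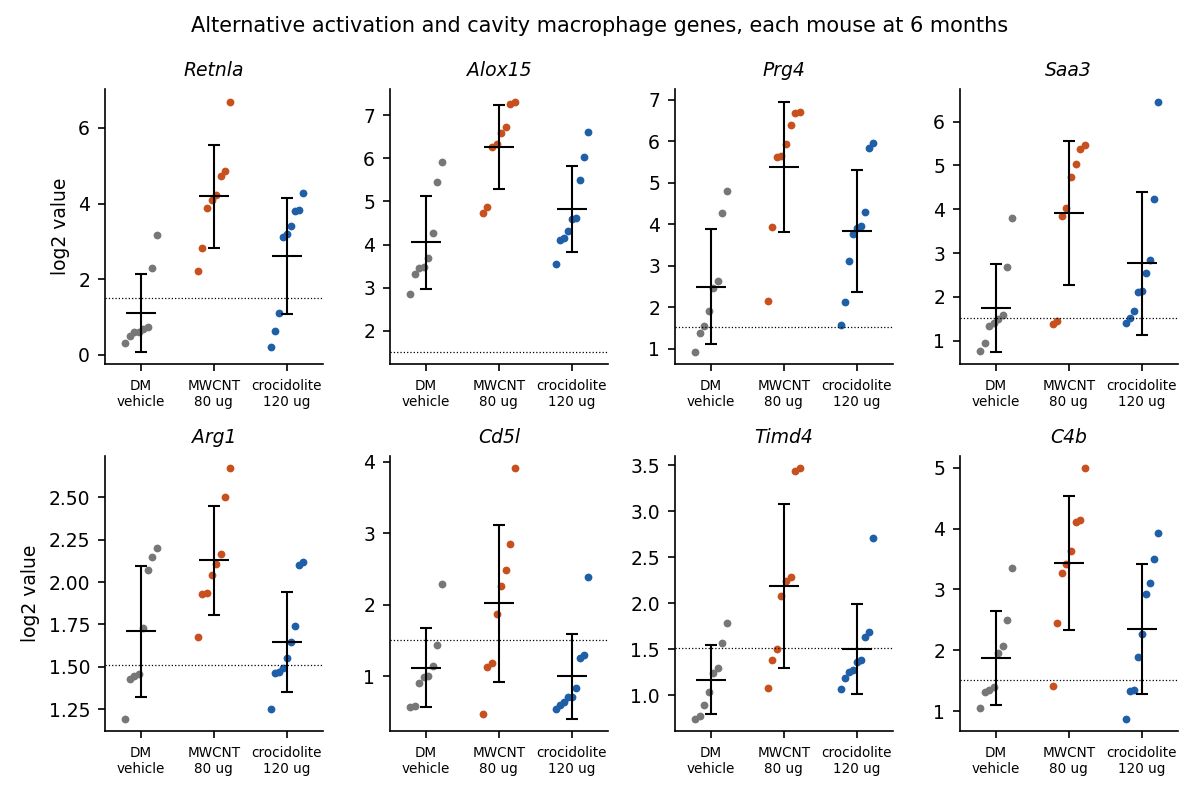
Log2 values of 8 genes (vertical axes) in each mouse at 6 months, drawn as in the plot of leading genes. MWCNT mice have the highest group mean for all 8 genes, crocidolite mice overlap them throughout, and the DM range reaches 3.16 for Retnla and 5.91 for Alox15.

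The place of each mouse within its group was followed over 8 genes chosen after their values were seen, Retnla, Alox15, Prg4, Saa3, C4b, Cfp, Timd4 and Cd5l. In the MWCNT group, mouse 1 was among the 2 lowest for 7 of the 8 genes and mouse 5 for 6. MWCNT mouse 3 was among the 2 highest for 5 genes and MWCNT mouse 2 for 4. In the crocidolite group, mouse 2 was among the 2 highest for 6 genes and mouse 5 for 5, and mice 3 and 4 were each among the 2 lowest for 5. In the DM group, mouse 1 was among the 2 highest for 8 and mouse 2 for 7. Some other mice kept no such place. Crocidolite mouse 6 was the lowest for Retnla (0.20) and the highest for Saa3 (6.46). Retnla was highest in MWCNT mouse 8 (6.70) and crocidolite mouse 8 (4.27). MWCNT mice 1 and 5 were the lowest MWCNT mice for Alox15 (4.86 and 4.73), Prg4 (3.93 and 2.15), Saa3 (1.45 and 1.37), C4b (2.45 and 1.41) and Cfp (4.02 and 4.19). MWCNT mice 3 and 7 were the highest for Alox15 (7.26 and 7.32), Timd4 (3.43 and 3.47) and Cd5l (3.91 and 2.85). In the crocidolite group, mouse 5 was the highest for Alox15 (6.60), Prg4 (5.97), Cd5l (2.39) and Cfp (5.52), and mouse 2 was the highest for Timd4 (2.70). In the DM group, mice 1 and 2 were the highest for Retnla (2.29 and 3.16), Alox15 (5.91 and 5.44), Prg4 (4.81 and 4.27) and Saa3 (3.80 and 2.69). DM mouse 2 was the array of low correlation. Within the MWCNT group, mouse 1 had the lowest median correlation (0.863) and mouse 5 the widest array spread (0.684). MWCNT mouse 4, with the next lowest correlation (0.875), was among the 2 lowest for 0 of the 8 genes. The part of array quality in these places was not tested. Retnla, Saa3, Prg4 and Alox15 ranked 52, 41, 59 and 195 by SD within the crocidolite group among the 23521 probe sets.

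Saa3, an acute-phase apolipoprotein that macrophages make, was 1.41 to 6.46 with a median of 2.13 in the crocidolite mice and 1.37 to 5.46 with a median of 4.39 in the MWCNT mice. The highest value of all was in a crocidolite mouse. The difference was -1.15 ± 0.58, with MWCNT above DM by 2.16 ± 0.59 (unadjusted p = 0.00039, limma adjusted p = 0.508) and crocidolite above DM by 1.02 ± 0.58. C4b, a complement component, differed by -1.08 ± 0.43 and Cfp, which encodes properdin, a stabilizer of the complement convertase, by -0.73 ± 0.30. These were the 2 of the 17 measured complement genes at an unadjusted p under 0.05, both lower (1.78% of all tested). Of the 17, 6 were above 0 (58.1% of all tested), and the list median was -0.08. Cfp was 4.39 ± 0.60 with crocidolite, 5.12 ± 0.71 with MWCNT and 3.91 ± 0.45 with DM (SD). The list shares C1qa, C1qb and C1qc with the cavity macrophage list, and these were below 0 without an unadjusted p under 0.05.

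Of the mesothelium list, Prg4 and Nkain4 (-0.41 ± 0.20) were the 2 of 17 measured genes at an unadjusted p under 0.05. Both were lower (1.78% of all tested). The defining gene Msln, mesothelin, had means of 1.33 ± 0.44 and 1.21 ± 0.45 (SD), both under the floor, and Upk3b had 1.70 ± 0.47 and 1.62 ± 0.28. The mean over the 17 genes was 1.51 to 2.07 in the crocidolite mice, 1.75 to 1.98 in the MWCNT mice and 1.52 to 1.95 in the DM mice. The part of other cell types in the differences of the cavity and alternative activation genes was not tested.

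In the inflammation lists members lay on both sides of 0. Pycard, the adaptor of inflammasomes, was 2.72 to 3.61 with crocidolite and 2.88 to 4.76 with MWCNT, a difference of -0.54 ± 0.21, and was the only 1 of 18 inflammasome and interleukin-1 genes at an unadjusted p under 0.05. Of 20 inflammatory cytokines and chemokines, 2 were higher and 2 lower at that p (2.62% and 1.78% of all tested). Higher were Ccl3, a chemokine of monocytes and neutrophils (0.65 ± 0.27), and Osm, oncostatin M (0.40 ± 0.17). Lower were Saa3 and Il10, the anti-inflammatory interleukin-10 (-0.33 ± 0.13), whose means of 1.08 and 1.41 lay under the floor. Tnfaip3, the enzyme that ends NF-κB signalling, was 3.25 ± 0.60 with crocidolite and 2.52 ± 0.41 with MWCNT (SD), a difference of 0.73 ± 0.28, the only 1 of 13 NF-κB genes. Nlrc5, the activator of MHC class I genes, differed by 0.71 ± 0.25, while the other 13 of the 14 measured class I presentation genes had larger p.

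Patrolling monocytes are the monocyte type that crawls along vessel walls. All 12 measured genes of their list were above 0, with a median difference of 0.44, and 2 of 12 were higher at an unadjusted p under 0.05 (2.62% of all tested). Ace, the angiotensin-converting enzyme, which these monocytes carry, was 4.80 to 7.31 with a median of 6.19 in the crocidolite mice and 3.62 to 5.99 with a median of 5.42 in the MWCNT mice. Of the crocidolite mice, 5 lay above all MWCNT mice. The difference was 0.95 ± 0.38, and the DM mice, at 4.04 to 6.31, overlapped both. Spn, the sialoglycoprotein CD43, differed by 0.46 ± 0.22. The transcription factor Nr4a1, which the cells need to form, had means of 5.51 ± 0.72 and 5.10 ± 0.60, and the receptor Cx3cr1 5.24 ± 0.87 and 4.93 ± 1.08 (SD), neither with an unadjusted p under 0.05. The mean over the 12 genes was 4.48 to 5.76 in the crocidolite mice, 4.35 to 5.10 in the MWCNT mice and 4.27 to 5.25 in the DM mice. In arrays 1 to 96 this mean averaged 5.27 with crocidolite and 4.75 with MWCNT. In arrays 97 and up it was 4.48 in the 1 crocidolite mouse and averaged 4.76 with MWCNT. The list is bright, with a median level of 4.61, and the counts above are to be read beside probe sets with a mean above 4, of which 82.7% were above 0 with a median of 0.14.

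Of 15 natural killer and cytotoxic genes, 14 were above 0, with a median difference of 0.33. Of all tested, 58.1% were above 0, and of those above the floor in a group 66.1%. In arrays 1 to 96 the list mean was 3.78 with crocidolite and 3.52 with MWCNT. In arrays 97 and up it was 3.0 in the 1 crocidolite mouse and 3.27 with MWCNT. At an unadjusted p under 0.05, 1 gene of the list was higher (2.62% of all tested). That was Il2rb, a chain of the receptors for interleukin-2 and interleukin-15, at 2.96 to 5.94 with crocidolite and 3.44 to 4.28 with MWCNT, a difference of 0.81 ± 0.38. In 6 of the 9 crocidolite mice it was above every MWCNT mouse, and in 1 it was below every one. Gzma, a granzyme, had means of 5.69 ± 0.62 and 5.22 ± 0.64, and Eomes, a transcription factor of the lineage, 2.35 ± 0.54 and 2.77 ± 0.79 (SD), the 1 member below 0. Lat, an adaptor of the T cell receptor, differed by 0.44 ± 0.20 and was the only 1 of 15 T cell genes at that p. It is bright, at 5.53 with crocidolite and 5.09 with MWCNT, so the median of 0.14 applies to it too.

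No member of the neutrophil granule (18 measured), platelet (12), erythroid (13), B cell (16), dendritic cell (11), basophil and mast cell (13), interferon-stimulated (20), fibrosis and matrix (21), iron handling (18), Nrf2 and oxidative stress (23), p53 (17) or proliferation (33) lists had an unadjusted p under 0.05. The same held for the 14 measured genes that the study singled out in blood. The study picked those for changes against DM that went the same way in cultured human cells, and reported no test between the materials. Cxcr1, a neutrophil chemokine receptor, differed by 0.57 ± 0.27 and was the only 1 of 12 genes of its list. Of 70 nuclear genes of the respiratory chain, 4 were higher and 0 lower at an unadjusted p under 0.05 (2.62% and 1.78% of all tested), namely Ndufv1 (0.50 ± 0.21), Ndufb7 (0.62 ± 0.26) and Ndufa5 (0.42 ± 0.20), subunits of complex I, and Atp5j2 (0.55 ± 0.27), a subunit of ATP synthase. Atp5j2 was dim, with MWCNT means of 1.46 in arrays 1 to 96 and 1.10 in arrays 97 and up, under the floor of 1.51. Of 59 ribosomal protein genes, Rps23 was higher (0.81 ± 0.39) and Rpl17 lower (-0.49 ± 0.24). Rps23 was dim too, with MWCNT means of 1.65 and 1.22 in these array ranges. The medians of these 3 lists, in the order given, were 0.27, 0.05 and 0.09, and their median levels of 4.62, 4.18 and 6.85 were bright.

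**Figure D4:**
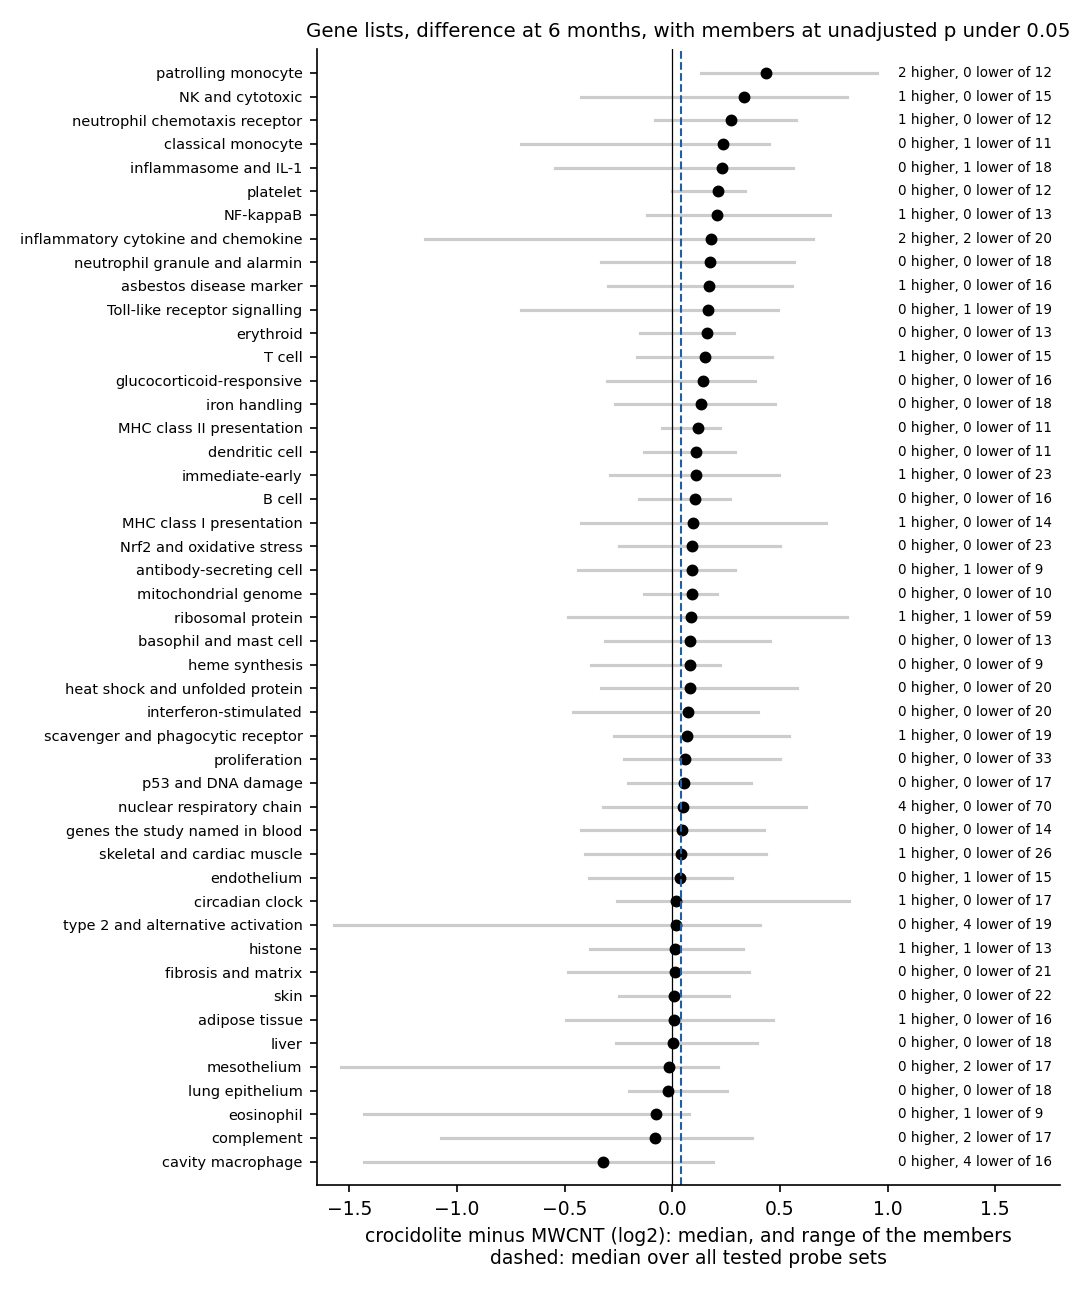
Median difference (crocidolite minus MWCNT, log2; black points) and range over the members (grey bars) of each of the 47 gene lists, with the number of members at an unadjusted p under 0.05. The dashed line is the median of all tested probe sets, 0.04; the patrolling monocyte list is highest at 0.44 and the cavity macrophage list lowest at -0.32.

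Against DM, 0 (0%) probe sets passed with either material, and 950 (4.04%) with crocidolite and 879 (3.74%) with MWCNT had an unadjusted p under 0.05. The nearest to passing with MWCNT was Retnla, which passed in 5 alternative settings. Genes lower with crocidolite than with MWCNT had DM means nearer to the crocidolite group: this was so for 293 of the 419 at an unadjusted p under 0.05 (69.9%), against 49.8% of all tested, at a median level of 1.22 that is under the floor. For the 616 higher ones it was 42.5%. Cd14 was an example, with DM at 2.16 ± 0.27, crocidolite at 2.20 ± 0.37 and MWCNT at 2.91 ± 0.63 (SD). Ace was 1 of the genes with DM between the materials, at 5.38 ± 0.86, against 6.06 ± 0.77 with crocidolite and 5.11 ± 0.92 with MWCNT.

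The same comparison was made in other mice at 1 and 12 months. Of the 419 probe sets lower at 6 months, 291 (69.5%) were also below 0 at 12 months and 52% at 1 month. The share of the 419 above 0 was 30.5% at 12 months and 48% at 1 month. Of all tested, 44.1% and 44.3% were above 0 there. The lower set lay below 0 more often than all tested at 12 months, but not at 1 month. These shares were not matched for level: the lower set had a median level of 1.22, under the floor, and all tested 1.58. The part of level in the share at 12 months was not tested. Of the 616 higher ones, 279 (45.3%) were above 0 at 12 months and 248 (40.3%) at 1 month. At 12 months 71 probe sets (0.302%) passed, with 13.9% at an unadjusted p under 0.05, and at 1 month 0 (0%) passed, with 4.37%, and 2 arrays of each group at 12 months were of low correlation. Retnla differed by -0.73 ± 0.66 at 1 month and -0.40 ± 0.64 at 12 months, Alox15 by -0.32 ± 0.58 and -0.73 ± 0.56, and Cd5l by -0.34 ± 0.35 and -0.50 ± 0.34, each the same direction as at 6 months. Klrb1f differed by -0.002 ± 0.31 at 1 month and 0.68 ± 0.30 at 12 months, and Ace by -0.18 ± 0.40 and 0.79 ± 0.39. Tef differed by 0.11 ± 0.20 and 0.09 ± 0.19, and Ppard by 0.11 ± 0.23 and -0.01 ± 0.22.

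Whether the difference between materials itself depended on the month was tested with an interaction term. For 6 against 12 months 0 (0%) probe sets passed (limma, smallest adjusted p = 0.239, 8.34% at an unadjusted p under 0.05), for 6 against 1 month 0 passed (5.39%), and for the F test over the 3 months 0 passed (7.74%). The genes of smallest p for 6 against 12 months included Tspo, a cholesterol-binding protein of the outer mitochondrial membrane, which differed by 0.37 ± 0.22 at 6 months and by -1.0 ± 0.22 at 12 months. Ormdl3, a brake on sphingolipid synthesis, differed by 0.71 ± 0.29 and -0.89 ± 0.30, Cox6b2, a subunit of cytochrome c oxidase, by 0.41 ± 0.24 and -0.88 ± 0.25, and S100a1, a calcium-binding protein, by 0.27 ± 0.20 and -0.79 ± 0.20. When arrays of low correlation were left out, 21 passed for 6 against 12 months, Tspo, Ormdl3, Cox6b2 and S100a1 among them.

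**Figure D5:**
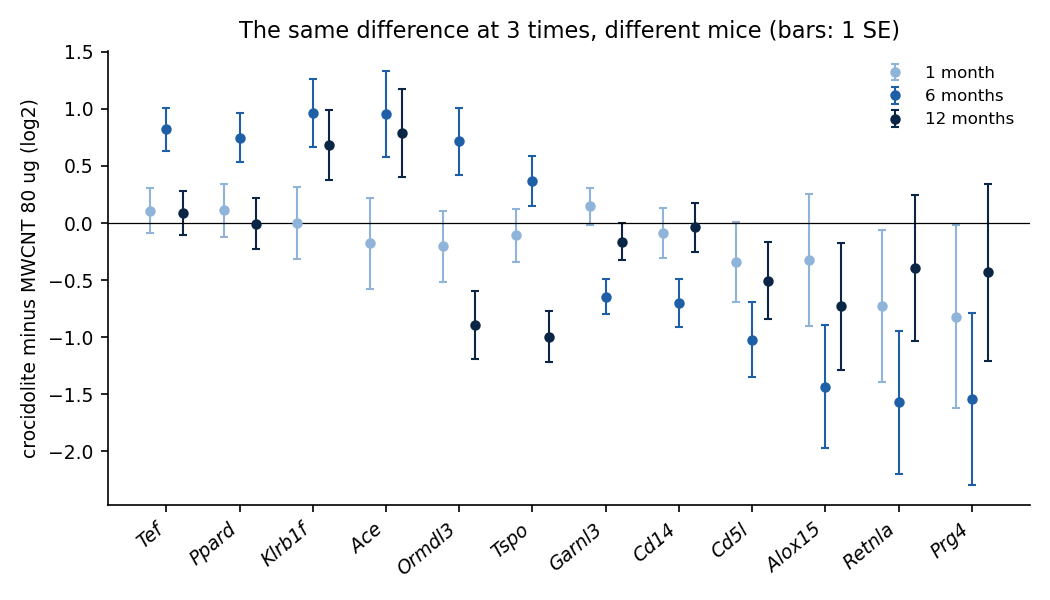
Difference between the materials (crocidolite minus MWCNT 80 µg, log2; vertical axis) for 12 genes at 1, 6 and 12 months, each in different mice; points are estimates and bars 1 SE. Tef and Ppard stand away from 0 at 6 months only by more than 2 SE, Ormdl3 and Tspo lie on opposite sides of 0 at 6 and 12 months, and the 3 estimates of Cd5l, Alox15, Retnla and Prg4 are all below 0.

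The part of the array numbers in the differences was examined within each range of numbers. Within arrays 1 to 96, with 8 crocidolite and 4 MWCNT mice, all 66 named probe sets kept their sign, with differences of -1.92 for Retnla, -1.44 for Alox15, -1.24 for Cd5l, 0.85 for Tef, 0.70 for Ppard and 1.42 for Ace. Other differences were smaller there than over all arrays, with -0.14 in place of -0.78 for Cln8, -0.24 in place of -0.70 for Agk, -0.27 in place of -0.54 for Pycard, 0.27 in place of 0.65 for Ccl3 and 0.16 in place of 0.30 for Gapdh, none of them at an unadjusted p under 0.05 within those arrays. Klrb1f, at 0.60, was also smaller in size within arrays 1 to 96, as were Ptprb (-0.20), Plin4 (0.27) and Ndufa5 (0.28), among others. Within arrays 97 and up there was 1 crocidolite mouse against 4 MWCNT mice, and 58 of the 66 kept their sign. There Retnla differed by -0.17, Alox15 by -2.06, Cd5l by -1.12, Tef by 0.88 and Ppard by 0.68, while Ace (-0.28), Il2rb (-0.92), Chst8, Cxcr1, Atf3, Spn, C4b and Nkain4 had the other sign.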

How the data were processed

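RNA of whole blood was measured by the authors on Affymetrix Mouse Gene ST 2.1 arrays. The deposited values are log2 values, which the authors made with the robust multi-array average (RMA); oligo and limma are also named in the submitters' processing notes. They were used as deposited. Of 41345 probe sets, 23521 had 1 gene symbol (22180 genes), 1820 had several and 16004 none in the platform's table; symbols were updated through gene IDs (23328 found, 193 not) with GRCm38.p6, which also gave the promoter.

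All 18 group means were fitted with limma 3.58.1 (R 4.3.3, lmFit and eBayes), 1 value per mouse, averaging the 5 mice with 2 arrays. P-values were adjusted by Benjamini-Hochberg over all 23521; a probe set passed at an adjusted p under 0.10. The fit was tested on simulated data. Members and lists were chosen with earlier results of these data known. Named genes were the 12 of smallest p in each direction whose mean in the higher of the compared groups exceeded the floor (the other may lie under it), up to 4 members of each of 47 lists (unadjusted p under 0.05; 1 probe set per gene, the brightest), 5 interaction genes, Retnla and Prg4; other list members in the text were chosen after their values were seen. The floor, 1.51, is exceeded by the means of 10% of 1108 olfactory receptor probe sets. Predicted and receptor-family genes were passed over. Nothing says which mice shared a litter or day. The number of arrays limits precision.

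The alternatives were other fits, a block for array numbers (split after 96), dim probe sets left out, a second quantile normalization, array weights, array spread as a covariate, arrays of median correlation under 0.85 left out, the methods' analysis of variance and each mouse left out in turn.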

Additional observations from a re-analysis of the deposited data

Results flagged for a closer look

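In 13 combinations of a named gene and a group, 1 mouse lay far from the rest of its group, where about 6.6 would by chance. No list mean (0 of 12) and no array measure (0 of 4) did so. Crocidolite mouse 5 was highest for Ccl24 (2.26, next 1.58), Cd5l (2.39, next 1.30) and H2ac12 (1.77, next 0.998). Crocidolite mouse 2 was highest for Timd4 (2.70, next 1.68) and Gapdh (9.74, next 9.38). Other crocidolite mice were highest for Cln8 (1.93, next 1.01), H2ac15 (1.88, next 0.573) and Myadml2 (3.40, next 2.27). In the MWCNT group the highest mouse stood apart for Ccl24 (3.28, next 1.89), Mib2 (1.66, next 1.07) and Rpl17 (3.99, next 3.01), and the lowest for Gapdh (8.36, next 8.87) and Zkscan3 (0.611, next 1.76).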

How the results depend on the processing

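The count of 0 probe sets that passed between the materials held under the alternatives tried, except without crocidolite mouse 8. There Tef passed (limma adjusted p = 0.0969), so that leaving out each mouse gave 0 to 1. After the second quantile normalization the smallest limma adjusted p was 0.102, just above the threshold of 0.10. In the main fit it was 0.632. The count at an unadjusted p under 0.05 was 907 to 1157 when each mouse was left out, 491 with dim probe sets left out (374 higher of 12274 tested, 76.2% higher against 59.5%) and 1875 over all 41345 probe sets of the table (1025 higher, 850 lower). MWCNT against DM, tried after seeing the data, gave 1 probe set, Retnla, with dim probe sets left out, a second quantile normalization, array weights, array spread as a covariate, or without arrays of low correlation (limma adjusted p 0.0478 to 0.0746). The interaction of 6 against 12 months gave 21 without arrays of low correlation. The causes were not tested. No named gene turned its direction in the alternative fits, but 58 of 66 kept it within arrays 97 and up, which hold 1 crocidolite mouse. With the array numbers as a block, the count at an unadjusted p under 0.05 was 1398 (939 higher, 459 lower, 67.2% higher), the higher ones over 1.5 times the 616, and the median difference of probe sets with a mean above 4 was 0.20 in place of 0.14, and 0.05 after the second quantile normalization. No paired analysis was possible because the labels give the groups no shared replicate numbers. Many named genes are dim, and the number of arrays limits what could be seen.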

Other observations

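Some further list members had an unadjusted p under 0.05 without passing. Hgf, a growth factor measured in asbestos disease, was 0.55 ± 0.26 (SE) higher with crocidolite, Fcer1g, a signalling chain of Fc receptors, 0.32 ± 0.15 higher at a mean of 9.94 against 9.63, where bright probe sets had a median of 0.14, and Atf3, a stress-induced transcription factor, 0.50 ± 0.24 higher. Fkbp11, a chaperone of antibody-secreting cells, differed by -0.44 ± 0.20 and Ptprb, a phosphatase of endothelium, by -0.39 ± 0.15. Each was alone in its list at that p, and most members were above 0, 7 of 9 for antibody-secreting cells (median 0.09) and 10 of 15 for endothelium (median 0.04). Plin4, a lipid droplet protein, differed by 0.47 ± 0.21 and Myh6, a cardiac myosin, by 0.44 ± 0.20, with group means of 0.93 to 1.56.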
